A study of Mus musculus with 9 samples.

Results

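The 6 genes described here are Csf1, which encodes the growth factor M-CSF, and the receptor genes Csf1r, Csf2ra, Csf2rb, Csf2rb2 and Csf3r. They were taken by gene symbol from a table of 28998 genes, and each symbol occurred once. RNA was measured in 9 libraries, 3 each of the groups Control, JHU083 and WGFT17. The cells, labelled BMDMs and wild type, were C57 mouse monocytes from bone marrow that had differentiated over 7 days of culture in GM-CSF, in all 3 groups. Drug treatment then lasted 36 h. JHU083 is a prodrug of the glutamine antagonist DON, and WGFT17 is a code name. The labels give neither a dose nor what the Control cells received, and they do not say whether the 3 libraries of a group are separate cultures or animals; the p-values below reflect no more than how far these libraries vary, which may be technical. The comparisons ask how each drug changed the RNA of the receptors for the cytokine in which the cells were grown, and of the related M-CSF and G-CSF receptors.

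Colony-stimulating factors are cytokines that drive the growth, survival and maturation of myeloid cells. GM-CSF binds an alpha chain, encoded by Csf2ra, which pairs with a common beta chain, encoded by Csf2rb and shared with the receptors for IL-3 and IL-5; the beta chain carries the kinase JAK2, which activates STAT5. Mice have a second beta chain gene, Csf2rb2, whose product serves the IL-3 receptor. Csf1r encodes the receptor tyrosine kinase for M-CSF and IL-34, on which most macrophages depend, and Csf3r encodes the receptor for G-CSF, best known from neutrophils.

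The libraries held 56624220 to 69112134 estimated counts. Because of the label of macrophages, 11 macrophage markers were looked up. Their summed level was 11441 to 13467 FPKM (fragments scaled to transcript length and sequencing depth) over the 9 libraries. Lyz2 alone, singled out after its values were seen, made up 7702 to 10047 of it, so the sum says little of the other markers. At an edgeR adjusted p under 0.05, 5 of the 11 were lower and 2 higher in WGFT17 against Control, where 30% and 28% of all genes tested were. Markers of other cells moved with the groups: 10 stromal genes summed to 1890.0 to 2016 FPKM in Control, 1257 to 1496 with JHU083 and 299 to 318 with WGFT17. In the same order of groups 12 neutrophil genes summed to 49.1 to 58.9, 21 to 24.7 and 7.09 to 11.1 FPKM, and 9 dendritic cell genes to 130 to 189, 129 to 147 and 52.6 to 61.6 FPKM. Nearly all of the dendritic cell sum came from Cd74, Itgax and H2-Ab1. Their means were 100, 37.7 and 15.3 FPKM in Control and 39.3, 8.01 and 6.60 in WGFT17. The rest of that list had means below 1 FPKM and did not all fall. The sum of 5 endothelial genes went the other way, at 7.85 to 8.39 FPKM in Control, 8.62 to 10.1 in JHU083 and 11.4 to 12.95 in WGFT17. Within it Vwf was higher in WGFT17 than in Control (9.89 against 3.12 FPKM). Pecam1 (0.787 against 1.91) and Cdh5 (1.06 against 2.35) were lower. No stromal or dendritic cell gene was listed at 0 throughout a group, whereas 1 neutrophil gene was in Control, 1 in JHU083 and 3 in WGFT17. JHU083 replicate 3 stood apart from the other JHU083 libraries: 9 retina genes summed to 7.32 FPKM there, against 0.17 and 0.12 in replicates 1 and 2 and 6.36 to 8.47 in Control. In WGFT17 the same sum was 0.10 to 0.15. A list of 10 heart genes divided the group otherwise: it summed to 56.3, 0.25 and 85.0 FPKM in JHU083 replicates 1 to 3, to 65.8 to 76.3 in Control and to 0.2 to 0.23 in WGFT17. Summed over 10 liver genes, the level was 413 to 464 FPKM in Control, 69.8 to 233 in JHU083 and 97.3 to 219 in WGFT17. The part of these differences in the results below was not tested.

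The positions are those of the table, which are GRCm38 coordinates. The beta chain genes lie side by side on chromosome 15, Csf2rb at 78325752 to 78351001 on the plus strand and Csf2rb2 at 78282507 to 78305721 on the minus strand. Csf2ra lies at 61223957 to 61228429 on chromosome 19, Csf1 at 107741048 to 107760469 on chromosome 3, both on the minus strand. Csf3r lies at 126024550 to 126044440 on chromosome 4, on the plus strand. The longest open reading frames of their transcripts, in GENCODE release M21, encode 388 residues for Csf2ra, 896 for Csf2rb, 878 for Csf2rb2, 977 for Csf1r, 837 for Csf3r and 552 for Csf1.

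Csf2rb and Csf2rb2 are near-identical copies, so it matters whether reads can be told apart. Their coding sequences were the same at 2505 of 2631 aligned bases (95.2%), with a longest identical run of 242 bases. Of the 4615 stretches of 150 bases (1 read length) in the Csf2rb transcript, 165 (3.58%) also occurred in Csf2rb2. The split of reads between the pair is therefore uncertain where a read falls in such a stretch. A variable stretch of 60 coding bases is shown, with the 13 differing bases in capitals.
Csf2rb, bases 304 to 363: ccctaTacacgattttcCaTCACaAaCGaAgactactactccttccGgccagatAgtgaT
Csf2rb2, bases 307 to 366: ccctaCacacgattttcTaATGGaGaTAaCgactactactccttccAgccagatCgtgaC

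RefSeq's promoter table (GRCm38.p6) held 4 of the 5 genes looked up there: Csf2ra, Csf2rb2, Csf1 and Csf3r. The 3 of these that rose in WGFT17 are printed, so that the sequences before their starts can be set side by side. Each run is the 250 bases before the start in RefSeq, on the gene's own strand. For Csf2rb2 and Csf1 that start is the one of the gene table, while for Csf2ra the last 11 bases of the run lie inside the gene as the table has it. The window of Csf3r reaches 109 bases into the gene as the table has it and is not shown. In the runs, matches to the searched motifs are in capitals.
Csf2ra, chr19:61228419-61228668, minus strand: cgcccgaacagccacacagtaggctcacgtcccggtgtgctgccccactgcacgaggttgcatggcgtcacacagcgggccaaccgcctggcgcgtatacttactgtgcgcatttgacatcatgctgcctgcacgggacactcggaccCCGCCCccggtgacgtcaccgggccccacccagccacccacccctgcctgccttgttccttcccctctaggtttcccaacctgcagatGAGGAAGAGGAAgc
Csf2rb2, chr15:78305722-78305971, minus strand: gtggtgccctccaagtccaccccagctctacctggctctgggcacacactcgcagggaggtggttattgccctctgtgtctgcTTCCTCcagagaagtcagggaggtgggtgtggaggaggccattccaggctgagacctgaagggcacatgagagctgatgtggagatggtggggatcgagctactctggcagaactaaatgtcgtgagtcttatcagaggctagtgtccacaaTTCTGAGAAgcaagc
Csf1, chr3:107760470-107760719, minus strand: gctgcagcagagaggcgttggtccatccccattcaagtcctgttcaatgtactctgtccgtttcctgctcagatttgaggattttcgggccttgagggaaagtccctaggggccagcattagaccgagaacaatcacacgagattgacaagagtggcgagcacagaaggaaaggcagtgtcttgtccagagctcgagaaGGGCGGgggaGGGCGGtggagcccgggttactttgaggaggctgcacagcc

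Both strands were searched for GAGGAA, a core of sites of the myeloid factor PU.1, and for TTCNNNGAA, the spaced palindrome of the STAT factors. They were also searched for TTGCNNAA, a pattern of the C/EBP factors, for TGANTCA, which the factor AP-1 binds, for GGGCGG, the box bound by the factor Sp1, and for TATAAA, the usual form of the TATA box. The patterns do not overlap one another in the matches found. Csf2ra held GAGGAA in tandem, from base -14 to -9 and from -8 to -3 before the RefSeq start, and GGGCGG on the opposite strand. The second copy of GAGGAA and the end of the first lie inside the gene as the table has it. Csf2rb2 held GAGGAA on the opposite strand and TTCNNNGAA from base -15 to -7. Csf1 held GGGCGG at 2 places. The window of Csf3r, which did not pass the test in any comparison, also held GAGGAA, from base -86 to -81. That match lies inside the gene as the table has it. Of 32851 promoter windows of this length, 23.3% held GAGGAA, 7.02% TTCNNNGAA and 32.7% GGGCGG. A match is a description of the letters and shows no binding.

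Csf1r had the highest level of the 6 genes in each group on the FPKM scale, which is per transcript length. Its mean was 273 ± 5.04 FPKM in Control (SD, n = 3, as for all means below), followed by Csf1 at 108 ± 3.87. The receptor genes for GM-CSF and IL-3 came next, with Csf2rb2 at 37.6 ± 2.70, Csf2ra at 34.7 ± 2.18 and Csf2rb at 26.6 ± 2.1, and Csf3r was lowest at 17.4 ± 1.02. In Control the ranges of Csf2rb2 and Csf2ra overlapped, so their order was not set by these libraries. In JHU083 Csf2ra (51.0 ± 11.8) and Csf2rb2 (47.1 ± 2.86) also overlapped. In WGFT17 Csf2ra (78.4 ± 4.00) stood above Csf2rb2 (63.4 ± 2.80) without overlap. The other neighbours in the order did not overlap in any group.

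**Figure D1:**
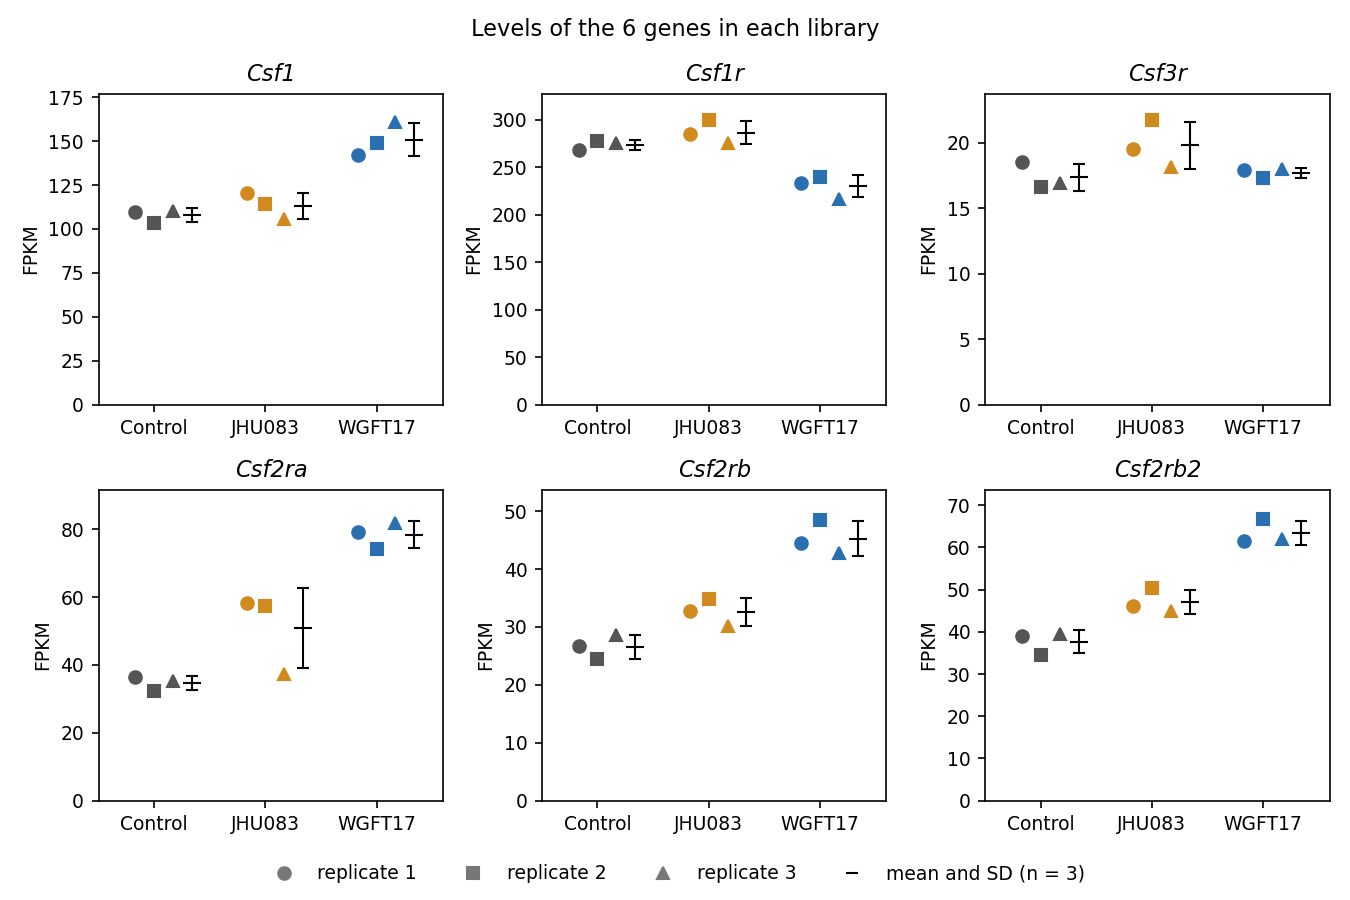
FPKM of the 6 genes (vertical axes from 0) in each library of Control, JHU083 and WGFT17, with replicates 1 to 3 as circles, squares and triangles and the mean and SD of 3 libraries beside them. The 3 GM-CSF and IL-3 receptor genes are highest in WGFT17, Csf1r is lowest there, and JHU083 replicate 3 lies near Control for Csf2ra.

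Of the 6 genes, the alpha chain gene Csf2ra rose most in both drug groups, though not in JHU083 replicate 3. With that library alone its log2 change from Control was 0.021, below those of Csf2rb (0.092) and Csf2rb2 (0.16). The level of Csf2ra was 36.6, 32.3 and 35.2 FPKM in Control replicates 1 to 3, 58.3, 57.4 and 37.4 with JHU083 and 79.2, 74.1 and 82.0 with WGFT17. The 3 groups did not overlap, but JHU083 replicate 3 lay just above the highest Control library while the other JHU083 libraries lay between Control and WGFT17. WGFT17 was 2.1-fold above Control, a log2 change of 1.07 with a standard error (SE) of 0.135 (edgeR's quasi-likelihood test with Benjamini-Hochberg adjustment over 11798 genes, adjusted p = 4.81e-05). Of all genes tested, 98.1% had a lower log2 change in that comparison. Against JHU083 the log2 difference was 0.61 (SE 0.134, edgeR adjusted p = 0.00337). JHU083 exceeded Control by 0.46 (SE 0.134, edgeR adjusted p = 0.0298); without JHU083 replicate 3 this was 0.64 (adjusted p = 5.87e-05), and with that library alone it was 0.021 (adjusted p = 0.867, where the lone library is assumed to vary like those of the other groups). The call also ended when any 1 Control library or JHU083 replicate 1 or 2 was left out (adjusted p = 0.0533 to 0.111), with no filter on low genes (0.0739) and with only these groups in the fit (0.0556). In all, 8 alternative runs ended the call and 11 kept it. Among those that kept it was removal of the GC trend (0.52, edgeR adjusted p = 0.00394).

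The common beta chain gene Csf2rb followed at lower levels. It was at 26.7, 24.4 and 28.6 FPKM in Control, 32.7, 34.9 and 30.1 with JHU083 and 44.4, 48.55 and 42.8 with WGFT17. Again no group overlapped another, with JHU083 in the middle. The log2 change from Control to WGFT17 was 0.66 (1.58-fold, SE 0.0777, edgeR adjusted p = 2.72e-05), and from JHU083 to WGFT17 it was 0.46 (SE 0.0775, edgeR adjusted p = 0.000528). JHU083 lay 0.20 above Control on the log2 scale, which did not pass the test (95% interval 0.03 to 0.37, edgeR adjusted p = 0.0856). Without JHU083 replicate 3 the difference was 0.25 (edgeR adjusted p = 0.0307), and with that library alone it was 0.092.

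The IL-3 beta chain gene Csf2rb2 moved by much the same amounts. Its level was 39.0, 34.5 and 39.4 FPKM in Control, 46.1, 50.3 and 44.8 with JHU083 and 61.6, 66.65 and 62.0 with WGFT17. The groups were again separate, and JHU083 replicate 3 was the lowest of its group, as for Csf2rb. WGFT17 exceeded Control by 0.64 on the log2 scale (1.56-fold, SE 0.0684, edgeR adjusted p = 1.17e-05) and JHU083 by 0.42 (SE 0.0682, edgeR adjusted p = 0.00044). JHU083 exceeded Control by 0.23 (SE 0.0682, edgeR adjusted p = 0.0337). With JHU083 replicate 3 alone, on the same assumption, it was 0.16 (adjusted p = 0.178), and leaving out Control replicate 1 or 2 or JHU083 replicate 1 or 2 ended the call (adjusted p = 0.0518 to 0.129), as did no filter (0.0875) and a fit of these groups only (0.0546).

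The ligand gene Csf1 and its receptor gene Csf1r moved in opposite directions in WGFT17. Csf1 was at 109.6, 103 and 110.4 FPKM in Control, 120.3, 114 and 106 with JHU083 and 142, 149 and 161 with WGFT17. Every WGFT17 library was above all others, and Control and JHU083 overlapped. The log2 change from Control to WGFT17 was 0.38 (1.30-fold, SE 0.0632, edgeR adjusted p = 0.000419), and from JHU083 to WGFT17 it was 0.40 (edgeR adjusted p = 0.000349). JHU083 and Control differed by -0.02 (95% interval -0.16 to 0.12, edgeR adjusted p = 0.817). The FPKM means lie the other way for this comparison, as they do for Csf1r in JHU083 and Csf3r in WGFT17, both against Control, so no direction is given for these 3.

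The Csf1r gene spans bases 61100598 to 61131134 of the plus strand of chromosome 18. It was at 268, 277 and 275 FPKM in Control, 285, 299 and 275 with JHU083 and 234, 239 and 217 with WGFT17. All 3 WGFT17 libraries lay below the lowest of the other 6, which overlapped. It fell by 0.36 on the log2 scale from Control to WGFT17 (1.28-fold, SE 0.0557, edgeR adjusted p = 0.000233) and by 0.33 from JHU083 (SE 0.0557, edgeR adjusted p = 0.000535). Between JHU083 and Control the log2 difference was -0.03 (95% interval -0.15 to 0.09, edgeR adjusted p = 0.745). In bulk RNA of this kind, fewer cells of a type and less RNA per cell cannot be told apart. Of the 11 macrophage markers 5 were called lower and 2 higher in WGFT17 against Control, where 30% of all genes tested were called lower and 28% higher.

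The G-CSF receptor gene Csf3r was at 18.5, 16.6 and 16.9 FPKM in Control, 19.5, 21.7 and 18.1 with JHU083 and 17.9, 17.3 and 18.0 with WGFT17. WGFT17 lay within the range of Control, and JHU083 overlapped Control. No comparison passed the test: the log2 difference from Control was 0.10 in JHU083 (95% interval -0.06 to 0.25, edgeR adjusted p = 0.337) and -0.08 in WGFT17 (95% interval -0.23 to 0.07, edgeR adjusted p = 0.35). WGFT17 lay 0.18 below JHU083, with no overlap (log2 difference -0.18, edgeR adjusted p = 0.0607), and without JHU083 replicate 3 this was -0.23 (adjusted p = 0.0101). Of 12 neutrophil markers 4 passed the filter, and these 4 fell from Control to WGFT17. Ngp (13.9 FPKM in Control, 0.187 in WGFT17) and S100a9 (17.2 and 0.39) passed it only through the groups where they are high. The filter thus favoured a fall, and no contrast with Csf3r is drawn.

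**Figure D2:**
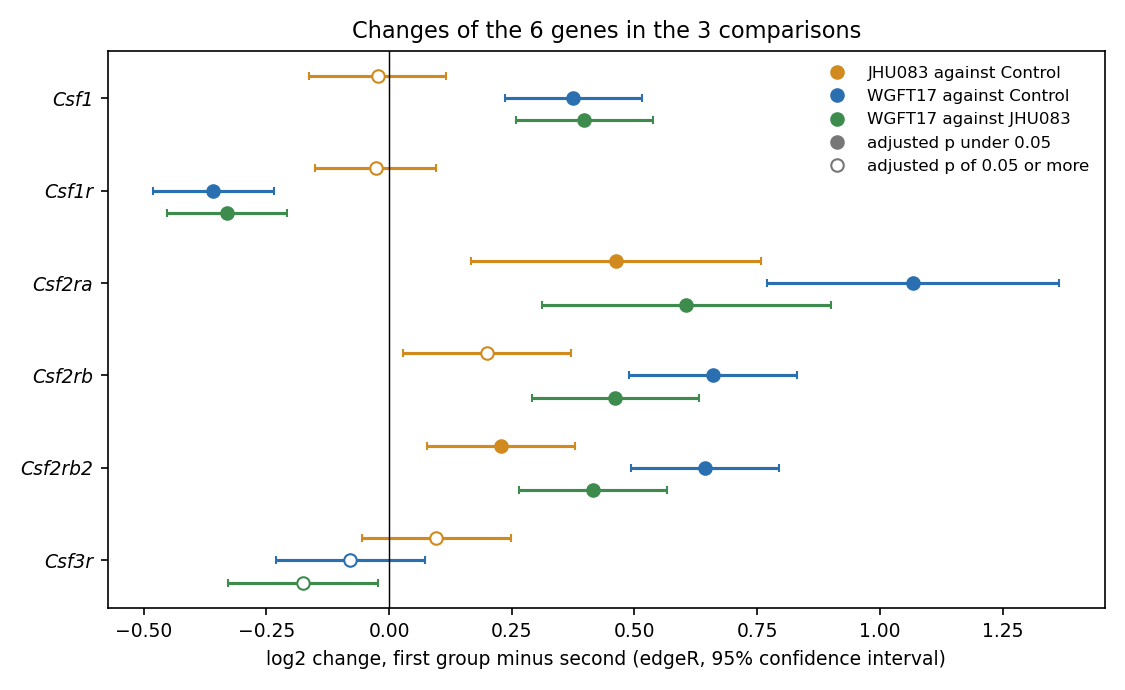
Log2 change of each of the 6 genes (horizontal axis, first group minus second) with its 95% confidence interval from edgeR, for JHU083 against Control, WGFT17 against Control and WGFT17 against JHU083; filled points passed an adjusted p of 0.05. The WGFT17 intervals for the 3 GM-CSF and IL-3 receptor genes lie above 0, those of Csf1r lie below 0, and the JHU083 intervals of Csf1, Csf1r and Csf3r cross 0.

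Across the 6 genes, 5 were called in WGFT17 against Control, 4 higher and 1 lower, where 58% of all genes tested were called (28% higher and 30% lower). In WGFT17 against JHU083 the same numbers held, with 44.7% of all genes called (20.4% higher and 24.4% lower). In JHU083 against Control 2 were called, both higher, where 24% of all genes were called (11.5% higher); an unadjusted p under 0.05 was reached by 3 higher and 0 lower, and DESeq2 called 2 higher and 0 lower. Groups that did not overlap were common among all genes tested, at 73.2% for WGFT17 against Control, 53.4% for WGFT17 against JHU083 and 43.7% for JHU083 against Control. The median log2 change of the 6 genes was 0.51 in WGFT17 against Control and 0.15 in JHU083 against Control, beside 0.00 over all genes in both. The 2 drug comparisons share the Control libraries.

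Ratios of FPKM within a library do not depend on library scaling. For the pair of beta chain genes, Csf2rb2 stood to Csf2rb as 1.42 ± 0.0390 in Control, 1.45 ± 0.0392 in JHU083 and 1.40 ± 0.0399 in WGFT17, with all groups overlapping (exact permutation test, two-sided, p = 0.3 to 0.6). The ratio of Csf2ra to Csf2rb was 1.37, 1.32 and 1.23 in Control and 1.78, 1.53 and 1.91 in WGFT17, without overlap. In JHU083 it was 1.785, 1.64 and 1.24, so that replicate 3 fell inside the Control range. Csf1r stood 10.3 ± 0.908 times above Csf2rb in Control, 8.81 ± 0.295 times in JHU083 and 5.08 ± 0.168 times in WGFT17, with no overlap between groups. The ratio of Csf1 to Csf1r was 0.395 ± 0.0191 in Control, 0.396 ± 0.0234 in JHU083 and 0.658 ± 0.0741 in WGFT17, where all 3 libraries were above the rest. With 3 libraries against 3 the smallest exact p is 0.1, reached by the 6 comparisons without overlap, and none can pass 0.05; adjusted over the 12 tests these 6 were at 0.2.

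**Figure D3:**
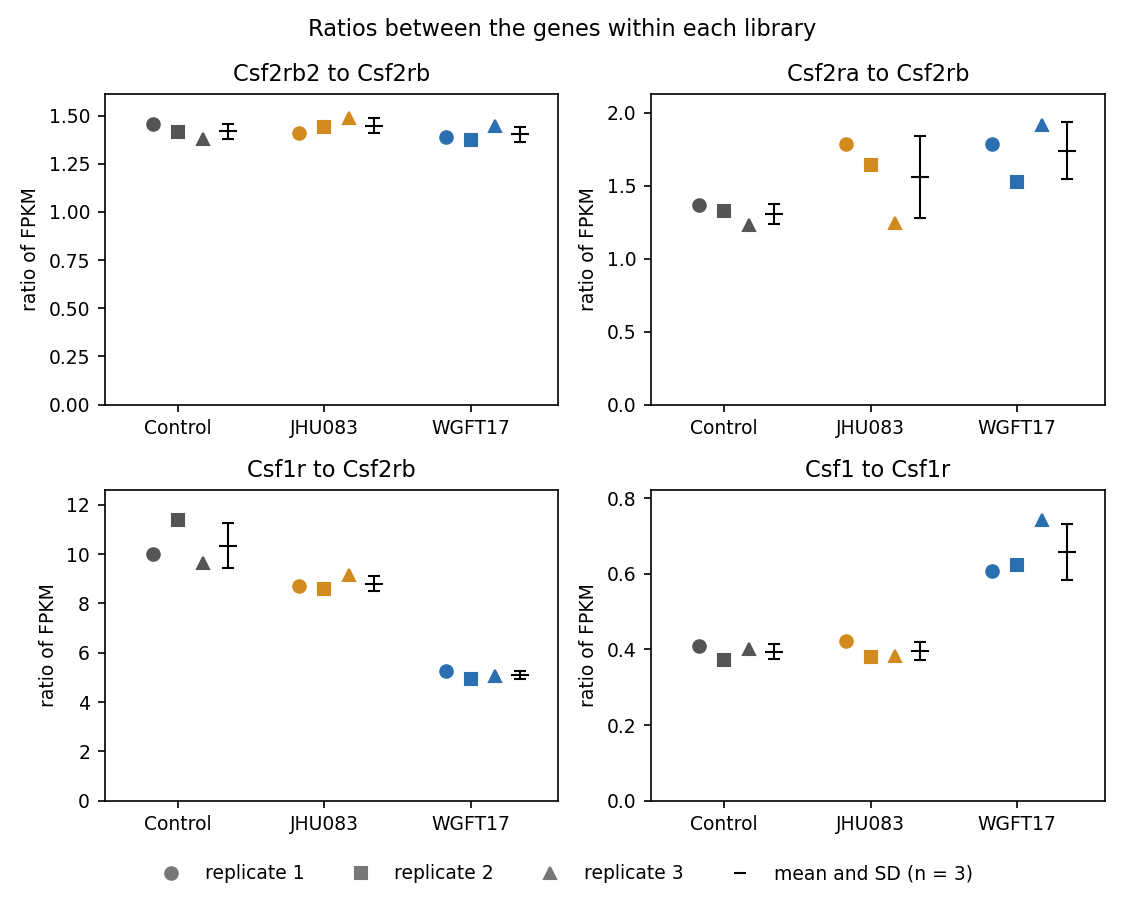
Ratio of FPKM between gene pairs (vertical axes from 0) in each library of the 3 groups, with replicates as circles, squares and triangles and the mean and SD of 3 libraries. The ratio of Csf2rb2 to Csf2rb stays between 1.37 and 1.49 in the 9 libraries, while that of Csf1r to Csf2rb is 4.93 to 5.26 in WGFT17 and 9.64 to 11.4 in Control.

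Among 11 related ligands and receptors, 9 were found by symbol among the 28998 genes, and 5 passed the filter of a mean of 1 FPKM. Csf2, the gene for GM-CSF, and Il3 had no entry under these symbols, so no level can be given. Il34, the second ligand of the M-CSF receptor, fell from 2.24 ± 0.0839 FPKM in Control to 0.92 ± 0.07 in WGFT17 (log2 change -1.39, SE 0.169, edgeR adjusted p = 3.38e-05, and -0.76 by limma on log2(FPKM + 1)). Its WGFT17 mean is below 1 FPKM, so Il34 passed the filter only through the groups where it is high. The filter thus favoured a fall, and no contrast with Csf1 is drawn. JHU083 did not differ from Control in Il34 beyond the test (2.33 ± 0.368 FPKM, edgeR adjusted p = 0.887). Kitl, the ligand of the KIT receptor, rose in JHU083 from 2.05 to 3.27 FPKM (log2 change 0.58, edgeR adjusted p = 0.00304), or by 0.33 with GC and length trends removed (adjusted p = 0.0451). Il3ra, the alpha chain of the IL-3 receptor, fell there from 8.25 to 6.38 FPKM (log2 change -0.46, edgeR adjusted p = 0.00219). Its partner Csf2rb2 was 0.23 above Control there, a call that 11 alternative runs kept and 8 ended. In WGFT17 Il3ra was at 8.08 FPKM (log2 difference from Control -0.14, edgeR adjusted p = 0.127).

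Csf3, the gene for G-CSF, was at 2.61, 3.16 and 1.99 FPKM in Control, was listed at 0 in JHU083 replicates 1 and 2, at 2.78 in JHU083 replicate 3, and at 0 in all WGFT17 libraries. The 5 libraries with 0 are those in which the retina genes summed to 0.10 to 0.17 FPKM. Whether these reads share a source was not tested, and no fold is given.

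Of 24 genes of receptor signalling (kinases, adaptors, phosphatases and STAT factors), 7 were called higher and 12 lower in WGFT17 against Control, with a median log2 change of -0.11; over all genes tested 28% were called higher and 30% lower. The count of 12 lower fell to between 8 and 9 with any 1 library left out, to 7 with no filter and to 2 with limma. Jak1, a kinase of several cytokine receptors, rose from 38.4 to 49.3 FPKM (log2 change 0.25, edgeR adjusted p = 0.000357). Src, a cytoplasmic tyrosine kinase, fell by 0.62 on the log2 scale (edgeR adjusted p = 0.000555). Of the genes that act directly below the GM-CSF receptor, Jak2 was at 10.7 FPKM in WGFT17 and 9.76 in Control (log2 difference 0.03, edgeR adjusted p = 0.764). Stat5a fell by 0.24 on the log2 scale (edgeR adjusted p = 0.00684), a call that ended with limma on log2(FPKM + 1) (adjusted p = 0.0944) and with the GC trend removed (adjusted p = 0.0524). Stat5b was at 10.2 against 8.61 FPKM (log2 difference 0.13, edgeR adjusted p = 0.0589), and was called in some settings, such as limma on log2(FPKM + 1) (0.22, adjusted p = 0.0048). In JHU083 against Control 4 of the 24 were called higher and 0 lower by edgeR; at an unadjusted p under 0.05 these numbers were 5 and 1, and DESeq2 called 4 and 1. Over all genes 11.5% were called higher, and the count of 4 ranged from 2 (no filter) to 9 (limma), and from 2 to 7 with 1 library left out. Jak2 was among the 4, with a rise of 0.30 (SE 0.0688, edgeR adjusted p = 0.0108), as was Pik3r1, the regulatory subunit of phosphoinositide 3-kinase, at 0.29 (edgeR adjusted p = 0.00851). With GC and length trends removed Jak2 was at 0.165 (adjusted p = 0.0481) and Pik3r1 lost its call (0.13, adjusted p = 0.0572); without Control replicate 3 Jak2 lost its call (adjusted p = 0.0502).

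Feedback genes and targets of STAT5 did not move one way. Of 13, 10 were tested, and 4 were called higher and 4 lower in WGFT17 against Control (28% and 30% of all genes). Socs3, an inhibitor of cytokine receptor signalling, fell from 15.7 ± 1.35 to 7.84 ± 0.841 FPKM (log2 change -1.11, edgeR adjusted p = 3.12e-06). The cyclin genes Ccnd2 and Ccnd1 fell by 0.83 and 0.48 on the log2 scale (edgeR adjusted p = 1.12e-07 and 1.31e-05). Bcl6, a transcriptional repressor, rose by 0.68 in WGFT17 (edgeR adjusted p = 2.22e-05) and by 0.44 in JHU083 (edgeR adjusted p = 0.00356). Cish, a feedback inhibitor induced by STAT5, was below the filter, at 0.61, 0.57 and 0.49 FPKM in Control, 0.53, 0.35 and 0.51 with JHU083 and 0.36, 0.27 and 0.32 with WGFT17. Its WGFT17 libraries were below all Control libraries. In JHU083 against Control 2 of the 10 were called higher and 1 lower (11.5% and 12.5% of all genes), and with 1 library left out 1 to 2 and 0 to 1.

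Of 10 genes of receptor shedding and turnover, 8 were tested, and 3 were called higher and 1 lower in WGFT17 against Control (28% and 30% of all genes). The sheddases Adam10 and Adam17, proteases that release the outer parts of membrane proteins such as the M-CSF receptor, rose by 0.60 and 0.24 in WGFT17 (edgeR adjusted p = 9.61e-06 and 0.00382) and by 0.29 and 0.28 in JHU083 (edgeR adjusted p = 0.00786 and 0.00672). With GC and length trends removed Adam17 rose by 0.13 in WGFT17, and Adam10 and Adam17 by 0.13 and 0.17 in JHU083. They were the 2 of 8 called in JHU083 against Control, where 24% of all genes were called; 2 to 4 of the 8 were called higher with 1 library left out and 5 with limma.

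Of 12 myeloid transcription factor genes, 10 were tested; 6 were called higher and 1 lower in WGFT17 against Control, with a median log2 change of 0.39, where 28% of all genes were called higher and 30% lower. In JHU083 against Control 1 was called higher, where 11.5% of all genes were; this count was 0 with no filter, 2 with library totals or limma, and 0 to 3 with 1 library left out. Spi1 encodes PU.1, a factor known to act at the promoters of the M-CSF, GM-CSF alpha chain and G-CSF receptor genes. It was at 63.3, 63.5 and 70.85 FPKM in Control, 79.4, 78.5 and 59.8 with JHU083 and 90.4, 93.2 and 92.9 with WGFT17. JHU083 replicate 3 was below every Control library while the other libraries of the group were above, and WGFT17 exceeded Control by 0.37 on the log2 scale (edgeR adjusted p = 0.0055). Cebpa, a factor of granulocyte and monocyte development, was at 45.1 ± 5.40 FPKM in Control and 84.6 ± 2.89 in WGFT17 (log2 change 0.80, edgeR adjusted p = 0.000334), and its JHU083 libraries were at 55.7, 58.9 and 39.4.

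Cebpb, a factor of macrophage activation, was split widely: 3.69, 3.63 and 4.04 FPKM in Control, 38.8, 36.25 and 1.47 with JHU083 and 65.9, 67.2 and 66.3 with WGFT17. In WGFT17 the log2 change was 4.02 (edgeR adjusted p = 0.00116), and in JHU083 it was 2.65 (edgeR adjusted p = 0.0276). The JHU083 call ended with no filter (adjusted p = 0.0827), with limma (1.69 on log2(FPKM + 1), adjusted p = 0.17), with only these groups in the fit (adjusted p = 0.0653) and when any library but JHU083 replicate 3 was left out (adjusted p = 0.0698 to 0.0928), while JHU083 replicate 3 alone lay below Control by 1.45 (log2 change -1.45). Klf4, a monocyte factor, doubled in level in WGFT17, from 6.79 to 14.6 FPKM (log2 change 1.00, edgeR adjusted p = 1.94e-06).

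**Figure D4:**
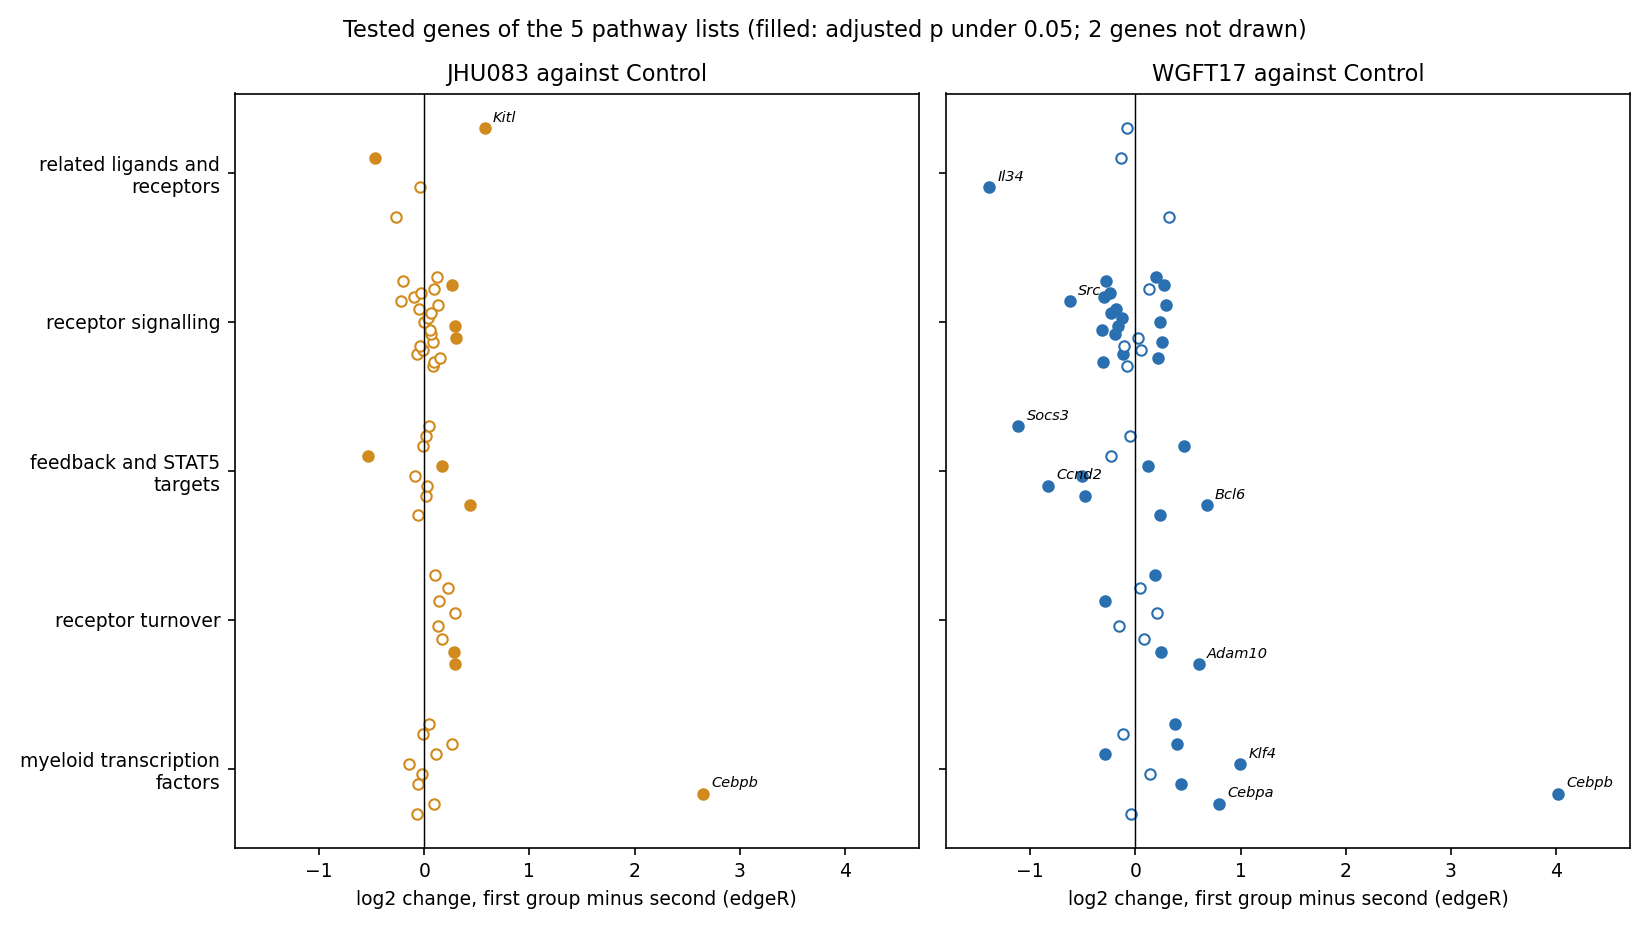
Log2 change from edgeR (horizontal axis) of the tested genes of 5 pathway lists in JHU083 against Control (left) and WGFT17 against Control (right); each point is a gene, filled where the adjusted p was under 0.05, and the vertical spread within a list only separates points; 2 genes, Csf3 among them, are not drawn, and drawn genes past 0.55 in size are named. In WGFT17 filled points lie on both sides of 0 for receptor signalling and for feedback and STAT5 targets, and 6 of 10 myeloid transcription factors are filled to the right of 0.

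**Figure D5:**
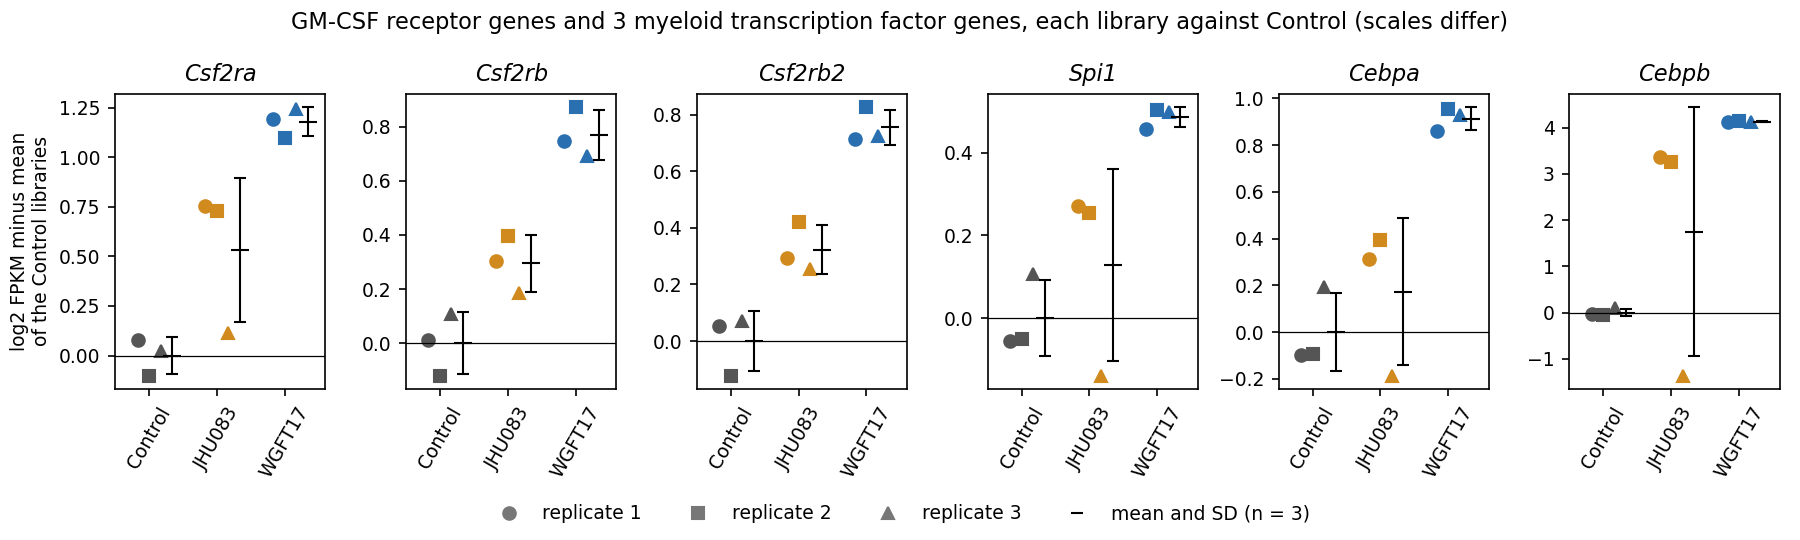
Log2 FPKM of each library minus the mean of the Control libraries (vertical axes differ between genes) for Csf2ra, Csf2rb, Csf2rb2, Spi1, Cebpa and Cebpb, with replicates as circles, squares and triangles and the mean and SD of 3 libraries. JHU083 replicate 3 is the lowest JHU083 library for all 6 genes and lies below every Control library for Spi1, Cebpa and Cebpb. The GC trend of that library differs from those of the other JHU083 libraries, and its part in these levels was not tested.

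The genes whose level followed each of the 6 most closely over the 9 libraries were found by Pearson's r of log2(FPKM + 1) among 6450 genes with a mean of at least 5 FPKM and no provisional symbol; the libraries fall into 3 groups, so a likeness mostly states a shared order of groups. Closest to Csf2rb was Csf2rb2 (r = 0.994) and the reverse, ahead of every other gene compared. Csf2ra was closest to Dpp9 (r = 0.996), Sbno2 (0.994) and Tesk1 (0.993). Csf1 was closest to Mef2d (0.988), Piezo1 (0.986) and Slc6a8 (0.985), and Csf1r to Hs2st1, Mgst3 and Entpd1 (0.978 each). An r of at least 0.95 was reached with 227 to 271 genes for the GM-CSF and IL-3 receptor genes, with 250 for Csf1, with 50 for Csf1r and with 0 for Csf3r, whose closest gene was Gpd1l (0.946).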

How the data were processed

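RNA of 9 libraries was read from 1 gene table. Per the submitters' processing notes the tools were edgeR, DESeq2, StringTie 2.1.6, HISAT2 2.2.1 and cutadapt 1.9, with no roles given, and the build was mm9; of 28926 gene IDs matched, 25194 (87.1%) had the table's chromosome, start and end exactly as in GENCODE M21, which is on GRCm38, so positions are given as GRCm38. The authors scaled the deposited FPKM values to transcript length and depth. The deposited expected counts (here estimated counts) are unscaled and whole; how many of them 1 read pair gives is not given in the sources used here.

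Genes with a mean of at least 1 FPKM over the 9 libraries (11798) were tested with edgeR 4.0.16 (R 4.3.3): TMM factors, quasi-likelihood test over all 9 libraries, Benjamini-Hochberg adjustment within each comparison, called under 0.05. The biological coefficient of variation was 0.122. The test was checked on simulated counts. Fold changes come from this fit; levels are FPKM. Ratios were compared by exact permutation tests, two-sided. Alternatives used limma 3.58.1 and DESeq2 1.42.0, other scalings and filters, a replicate block, each library left out in turn, and, added after seeing the data, removal of trends with GC content and length. Sequences come from RefSeq (GRCm38.p6 promoters) and GENCODE M21 transcripts, read with Biopython 1.88.

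The 6 genes and the 13 lists were chosen with earlier results of these data known. Named list genes are among the 3 called genes of their list with the smallest adjusted p in a comparison, or are Csf2, Csf3, Il34, Spi1, Cebpa, Cebpb, Cish, Socs3, Jak2, Stat5a or Stat5b; for each of the 6 genes the 3 most alike by Pearson's r could be named. The values of 1 list gene are not reported here.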

Additional observations from a re-analysis of the deposited data

How the results depend on the processing

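All calls and non-calls of the 6 genes in WGFT17 against Control held under each alternative run, and in WGFT17 against JHU083 so did those of every gene but Csf3r. Its log2 difference there passed the threshold with library totals only (-0.19), a filter of 5 FPKM (-0.20) and the GC (-0.17) or GC and length (-0.18) trends removed; with 1 library left out it was -0.23 to -0.10. The calls of JHU083 against Control depend on the processing. Csf2ra lost its call with no filter (0.46, adjusted p = 0.0739), with only these 2 groups fitted (0.46, adjusted p = 0.0556) and with JHU083 replicate 3 alone, a lone library assumed to vary like those of the other groups (0.021). Csf2rb2 lost it with no filter (0.22), with 2 groups (0.23) and with JHU083 replicate 3 alone (0.16). Csf2rb gained a call with library totals (0.23), a filter of 5 FPKM (0.22), limma on log2(FPKM + 1) (0.28) or log2(FPKM + 0.1) (0.29) and the GC trend removed (0.25). With 1 library left out these log2 changes were 0.36 to 0.64 for Csf2ra, 0.16 to 0.27 for Csf2rb2 and 0.14 to 0.26 for Csf2rb. Of the 6 genes, 0 were called with no filter, with 2 groups or with replicate 3 alone, and 0 to 3 with 1 library left out. The cause was not tested. With no filter the adjustment was over 28998 genes, against 11798 in the main run.

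With the replicate block, Csf2rb2 lost its call in JHU083 against Control (0.23, adjusted p = 0.068), leaving 1 of the 6 genes called; the block changed no other call of these genes. Deviations from the group means correlated at -0.03 to 0.161 between same-numbered libraries and at -0.146 to 0.133 between the other pairs across groups. With 3 libraries a group these values cannot show whether same-numbered libraries share a culture or animal, and the labels do not say.

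Over all genes, 2831 were called in JHU083 against Control, and 1534 to 3731 with 1 library left out; the lowest number came without Control replicate 2 and the highest without JHU083 replicate 3. With a filter of 5 FPKM, which leaves 6807 genes, 4151 rather than 6837 were called in WGFT17 against Control and 3305 rather than 5277 in WGFT17 against JHU083. The share called higher in JHU083 against Control was 47.7%, against 58.7% with library totals and 71.6% with limma on log2(FPKM + 1); in WGFT17 against Control it was 48.3%, against 60.9% with limma. Limma on log2(FPKM + 0.1) moved the median of all genes in that comparison to 0.11. Transcript GC was 57.8% for Csf2ra and 53.3 to 54.5% for the others. Log2 change correlated with GC across genes at a Spearman rho of -0.266 in JHU083 and -0.158 in WGFT17, both against Control. With transcript length it correlated at 0.384 and 0.192. In JHU083 replicate 3 the fitted GC trend was 0.191 at a GC of 39.8% and -0.173 at 59.4%. In JHU083 replicates 1 and 2 it was -0.0236 and 0.00367 at the lower GC and 0.0783 and 0.0808 at the higher. The GC of Csf2ra, Spi1, Cebpa and Cebpb exceeded that of 90.5, 94, 98.9 and 99.9% of tested genes. For Csf2rb and Csf2rb2 this was 72.5 and 69.1%. The part of this trend in the levels of JHU083 replicate 3 was not tested.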
